A study of Homo sapiens with 11 samples.

Results

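The line by FHD-286 interaction is the amount by which the response to FHD-286 differed between OCI-AML3-FLT3-ITD and OCI-AML3 cells. It was computed for each gene on the log2 scale as treated minus control FLT3-ITD cells, less treated minus control OCI-AML3 cells. All 11 of the 11 samples of the study entered it. They were 3 OCI-AML3 controls, 3 OCI-AML3 samples with 100 nM FHD-286 for 16 h, 3 OCI-AML3-FLT3-ITD controls and 2 OCI-AML3-FLT3-ITD samples with the same dose and time. OCI-AML3 is an established human acute myeloid leukaemia (AML) line. OCI-AML3-FLT3-ITD is named in the labels for an internal tandem duplication of FLT3. The labels do not say how that line was made, whether it is 1 clone, or whether controls received a vehicle. The comparison asks whether cells with the FLT3 mutation respond differently to an inhibitor of BRG1 and BRM.

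BRG1 and BRM, encoded by SMARCA4 and SMARCA2, are the alternative ATPases of the BAF complex, which moves nucleosomes and keeps enhancers open. FHD-286 inhibits both, and myeloid leukaemia cells are known to need this activity to sustain the transcription factor PU.1 and its targets and high MYC. FLT3 is a receptor tyrosine kinase of blood progenitors. Its internal tandem duplication signals without ligand, through STAT5 among other routes.

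Total counts ran from 58397190 to 79172389 per library, so 3 counts corresponded to 0.0366 to 0.0548 CPM (normalised CPM, the count of a gene scaled to a common library size). That limit, like others here, covers the error of counting alone. The labels do not tell whether replicates came from separate cultures, and the p-values then describe the spread among these libraries, part or all of which may be technical. The library labelled FLT3-ITD control replicate 2 stood apart. It correlated at 0.957 and 0.960 (log CPM, across genes) with its 2 sister controls, against 0.992 to 0.995 for other pairs within a group. It was nearer to the OCI-AML3 controls than to its sister controls for 9945 of the 18908 genes tested, and for 231 of the 635 genes called below. It held 53.4 CPM of FLT3 against 178 and 203 CPM in its sisters, and 45.6 CPM of MATK, which was at 0 in both sisters and at 67.5, 63.6 and 70.7 CPM in the OCI-AML3 controls. Whether it holds cells other than its label says was not tested. If it does, the values with all 11 libraries do not describe untreated FLT3-ITD cells alone. Counts of genes are therefore given with all 11 libraries and again without that library, called FLT3-ITD control 2 from here on. FLT3-ITD controls are listed as replicates 1, 2 and 3, so the middle value is always that library. Of the line identity markers, PTPRC (256.1 to 419 CPM), CD33 (31.1 to 62.0 CPM) and CEBPA (56.8 to 309 CPM) were present in every library, while CD68 was at 0.241 CPM or less and MPO at 2.62 CPM or less. HBB and CD3E, which mark erythroid and T cells, were at 0 in every library.

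The effect of FHD-286 differed between the 2 lines for 635 of 18908 genes (3.36%) with all 11 libraries. The test was the quasi-likelihood F test of edgeR with p-values adjusted after Benjamini and Hochberg and a threshold of 0.05, and every adjusted p below comes from it. A positive interaction (called higher) means that expression moved further up, or less far down, in the FLT3-ITD line. Of the called genes 375 (1.98% of those tested) were higher and 260 (1.38%) lower, with a median size of 0.79 and 202 of at least 1 on the log2 scale. For comparison, FHD-286 itself changed 41.3% of genes in OCI-AML3 and 30.5% in the FLT3-ITD line, or 58.8% and 49% without FLT3-ITD control 2. With upper-quartile scaling 682 genes were called, of which 45.2% were higher, against 59.1% with the scaling used here. Without FLT3-ITD control 2 the interaction was called for 3177 of 18662 genes (17%), 1797 higher (9.63%) and 1380 lower (7.39%). All 635 genes were called in both fits with the same sign, and 2542 only in the second. The common biological coefficient of variation, the relative spread between replicates, was 0.193 with that library and 0.0652 without it. The count also moved with other libraries. It was 105 and 184 without treated FLT3-ITD replicate 1 or 2, where the single treated library left is taken to vary as much as the other groups do, and 185 to 297 without any single OCI-AML3 library. It was 1200 without FLT3-ITD control replicate 1 and 667 without replicate 3.

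Opposite directions were the smaller part of the interaction. Of the 635 genes, 90 (14.2%; 0.476% of all genes tested) passed the test in each line with opposite signs, 52 that fell in OCI-AML3 and rose in the FLT3-ITD line and 38 that did the reverse. A further 183 (28.8%) moved in the same direction in both lines by different amounts. The remaining 362 passed in 1 line only, 262 in OCI-AML3 (185 fell, 77 rose) and 100 in the FLT3-ITD line (44 fell, 56 rose). Without FLT3-ITD control 2 the opposite class held 309 genes (9.73% of those called; 1.66% of those tested), the same-direction class 1346 (42.4%), OCI-AML3 only 1009 and FLT3-ITD only 497, and 16 genes passed in neither line. Of the 635 genes, 528 kept their detailed response class in both fits, and all 90 opposite genes stayed opposite. By sign alone, whether or not each line passed, 305 of the 635 pointed in opposite directions. On the linear CPM scale the sign of the interaction turned for 13 genes, each of which moved in the same direction in both lines. SPI1 and IFIT2, described below, were among them.

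**Figure D1:**
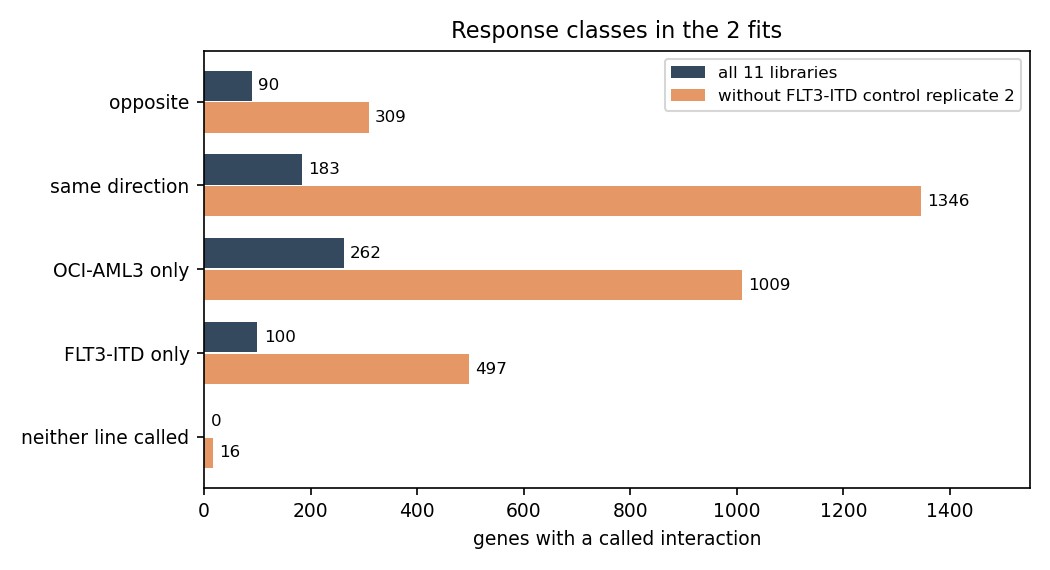
Number of genes with a called interaction (x axis) by how FHD-286 moved them in the 2 lines (y axis), with all 11 libraries (dark) and without FLT3-ITD control replicate 2 (orange). The opposite class went from 90 to 309 genes and the same-direction class from 183 to 1346.

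**Figure D2:**
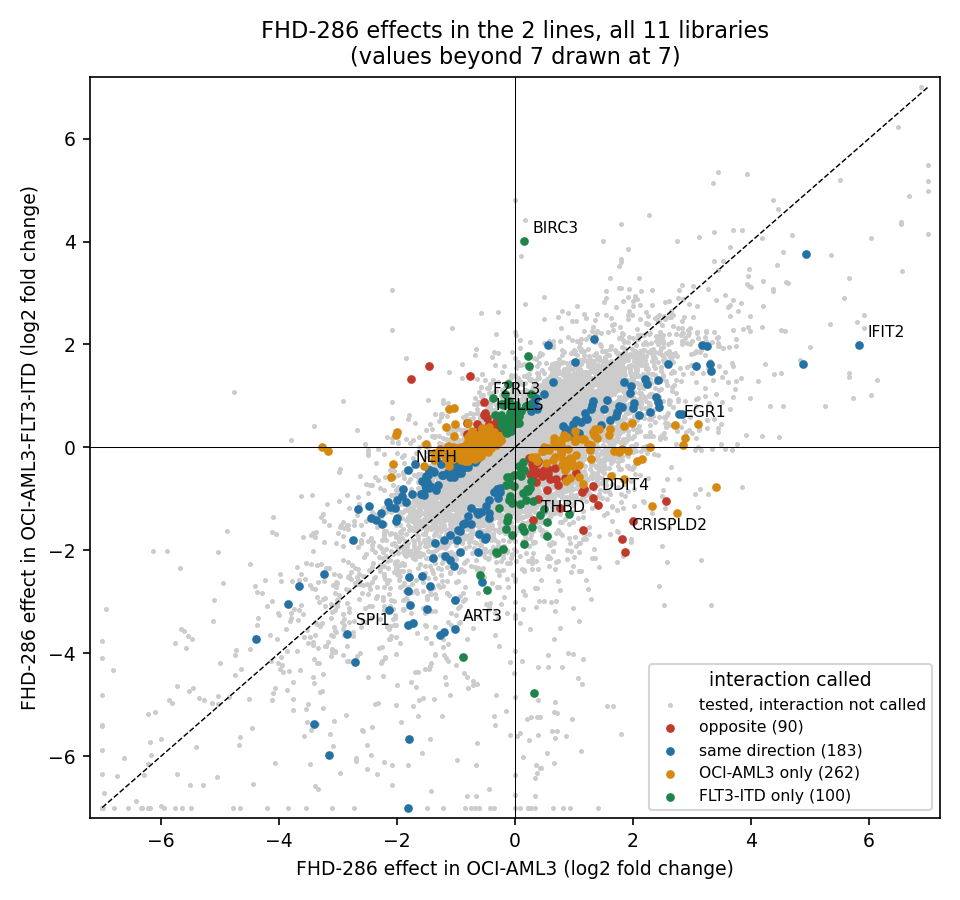
Log2 fold change with FHD-286 in OCI-AML3 (x axis) against that in OCI-AML3-FLT3-ITD (y axis), 1 point per gene tested with all 11 libraries; the distance from the dashed diagonal is the interaction. The 90 opposite genes (red) lie in the upper left and lower right, while the 183 same-direction genes (blue) lie in the upper right and lower left away from the diagonal.

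Genes that fell in OCI-AML3 and rose in the FLT3-ITD line are described first. Among genes with an average log2 CPM of 2 or more, ranked on the smaller of the interactions in the 2 fits, the first 5 were F2RL3, ESCO2, ERCC6L, HELLS and GINS1. The same limit and ranking apply to the genes that lead each kind below. HELLS, a helicase of the SNF2 family that acts in DNA methylation (ENSG00000119969.14, chromosome 10, 94501434 to 94613905 on GRCh38), stood at 23.2, 23.3 and 21.5 CPM in the OCI-AML3 controls, 14.96, 16.1 and 18.1 CPM in treated OCI-AML3, 24.7, 27.9 and 26.05 CPM in the FLT3-ITD controls and 40.1 and 37.3 CPM in treated FLT3-ITD cells. The groups did not overlap within either line, and the treated FLT3-ITD libraries were above all others. For HELLS the interaction was 1.03 (SE 0.13, adjusted p 0.00414), made of -0.47 in OCI-AML3 and 0.56 in the FLT3-ITD line. GINS1, a subunit of the replicative helicase (ENSG00000101003.9, chromosome 20, 25407727 to 25452628), was measured at 55.5, 53.4 and 51.5 CPM in the OCI-AML3 controls, 29.3, 30.97 and 30.6 CPM in treated OCI-AML3, 50.8, 43.5 and 50.3 CPM in the FLT3-ITD controls and 59.3 and 55.98 CPM in treated FLT3-ITD cells. Its fall in OCI-AML3 (-0.82) was larger than its rise in the other line (0.26), so most of its interaction of 1.08 (SE 0.11, adjusted p 0.00172) lay in OCI-AML3.

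ESCO2, which acetylates cohesin so that sister chromatids hold together (ENSG00000171320.14, chromosome 8, 27771949 to 27812640), had levels of 33.5, 32.6 and 30.6 CPM in the OCI-AML3 controls, 17.6, 18.5 and 18.7 CPM in treated OCI-AML3, 38.4, 28.9 and 42.7 CPM in the FLT3-ITD controls and 53.6 and 47.9 CPM in treated FLT3-ITD cells. FLT3-ITD control 2 was the lowest of its group, and the interaction was 1.29 (SE 0.19, adjusted p 0.00634) with it and 1.14 (adjusted p 2.05e-07) without it. ERCC6L, a helicase of mitotic chromosomes (ENSG00000186871.6, chromosome X, 72204657 to 72239047), had no called gap between untreated lines. It went from 19.9, 19.8 and 19.9 to 13.3, 14.2 and 13.996 CPM in OCI-AML3 and from 19.4, 18.6 and 19.6 to 29.7 and 29.4 CPM in the FLT3-ITD line. Its interaction was 1.15 (SE 0.11, adjusted p 0.00125), with an untreated gap of -0.05. F2RL3, a receptor activated by thrombin (ENSG00000127533.3, chromosome 19, 16888860 to 16892606), rose in the FLT3-ITD line from 24.3, 13.7 and 24.4 to 35.98 and 40.2 CPM and fell in OCI-AML3 from 11.3, 12.3 and 13.1 to 8.19, 8.77 and 8.45 CPM. Its interaction was 1.4 (SE 0.28, adjusted p 0.0243), and 1.18 without FLT3-ITD control 2.

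Genes that rose in OCI-AML3 and fell in the FLT3-ITD line were led by CRISPLD2, DDIT4, THBD, RIN3 and ARHGEF3. THBD encodes thrombomodulin, a surface protein that turns thrombin towards anticoagulation (ENSG00000178726.6, chromosome 20, 23045633 to 23049741). It stood at 113, 113 and 119 CPM in the OCI-AML3 controls, 139, 147 and 140.1 CPM in treated OCI-AML3, 116, 143 and 123 CPM in the FLT3-ITD controls and 47.998 and 47.6 CPM in treated FLT3-ITD cells. Treated OCI-AML3 libraries were just above their controls, and treated FLT3-ITD libraries were far below all others. For THBD the interaction was -1.72 (SE 0.12, adjusted p 0.000589), of which -1.41 was the fall in the FLT3-ITD line and 0.3 the rise in OCI-AML3. CRISPLD2, a secreted protein that binds bacterial lipopolysaccharide (ENSG00000103196.11, chromosome 16, 84819984 to 84920768), was at 21.05, 21.3 and 20.6 CPM in the OCI-AML3 controls, 71.8, 78.3 and 71.96 CPM in treated OCI-AML3, 7.01, 23.3 and 8.59 CPM in the FLT3-ITD controls and 3.996 and 3.59 CPM in treated FLT3-ITD cells. FLT3-ITD control 2 was at the level of the OCI-AML3 controls, above its sisters. The interaction was -3.59 (SE 0.55, adjusted p 0.00889) with it and -2.86 (adjusted p 8.33e-12) without it, and the fall in the FLT3-ITD line moved from -1.77 to -1.05.

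DDIT4, an inhibitor of the growth kinase complex mTORC1 (ENSG00000168209.4, chromosome 10, 72273920 to 72276036), combined an opposite response with a large untreated difference. Its levels were 10.3, 9.95 and 11.96 CPM in the OCI-AML3 controls, 28.9, 25.4 and 26.02 CPM in treated OCI-AML3, 138, 63.2 and 130.3 CPM in the FLT3-ITD controls and 54.4 and 57.1 CPM in treated FLT3-ITD cells. The FLT3-ITD controls were all above the OCI-AML3 controls (untreated difference 3.36), and FHD-286 brought the lines closer (treated difference 1.06). For DDIT4 the interaction was -2.31 (SE 0.36, adjusted p 0.00889), although 41.2% of its exonic bases overlap another gene, which leaves its counts uncertain. RIN3, an exchange factor for the endosomal GTPase Rab5, rose from 6.32, 6.61 and 6.25 to 13.4, 13.7 and 12.2 CPM in OCI-AML3 and fell from 12.4, 8.65 and 10.4 to 7.99 and 6.86 CPM in the FLT3-ITD line (interaction -1.53, SE 0.21, adjusted p 0.00486). ARHGEF3, a guanine nucleotide exchange factor, rose by 0.74 in OCI-AML3 and changed by -0.74 in the FLT3-ITD line (interaction -1.47). It ended at 8.64, 10.1 and 8.605 CPM in treated OCI-AML3 and 8.42 and 7.91 CPM in treated FLT3-ITD cells, a treated difference of -0.16 that did not pass the test.

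Of the 90 opposite genes, 89 had CPM ranges that did not overlap between treated and control libraries in either line. All 90 kept opposite signs with DESeq2 size factors, upper-quartile factors or library totals as scaling, and after leaving out any single library. The genes were chosen by tests on these same libraries, which favours both results, so neither adds support. No share over all genes tested is given for comparison. With library totals 45 of the 90 still passed in both lines. Without treated FLT3-ITD replicate 1 that number was 20.

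**Figure D3:**
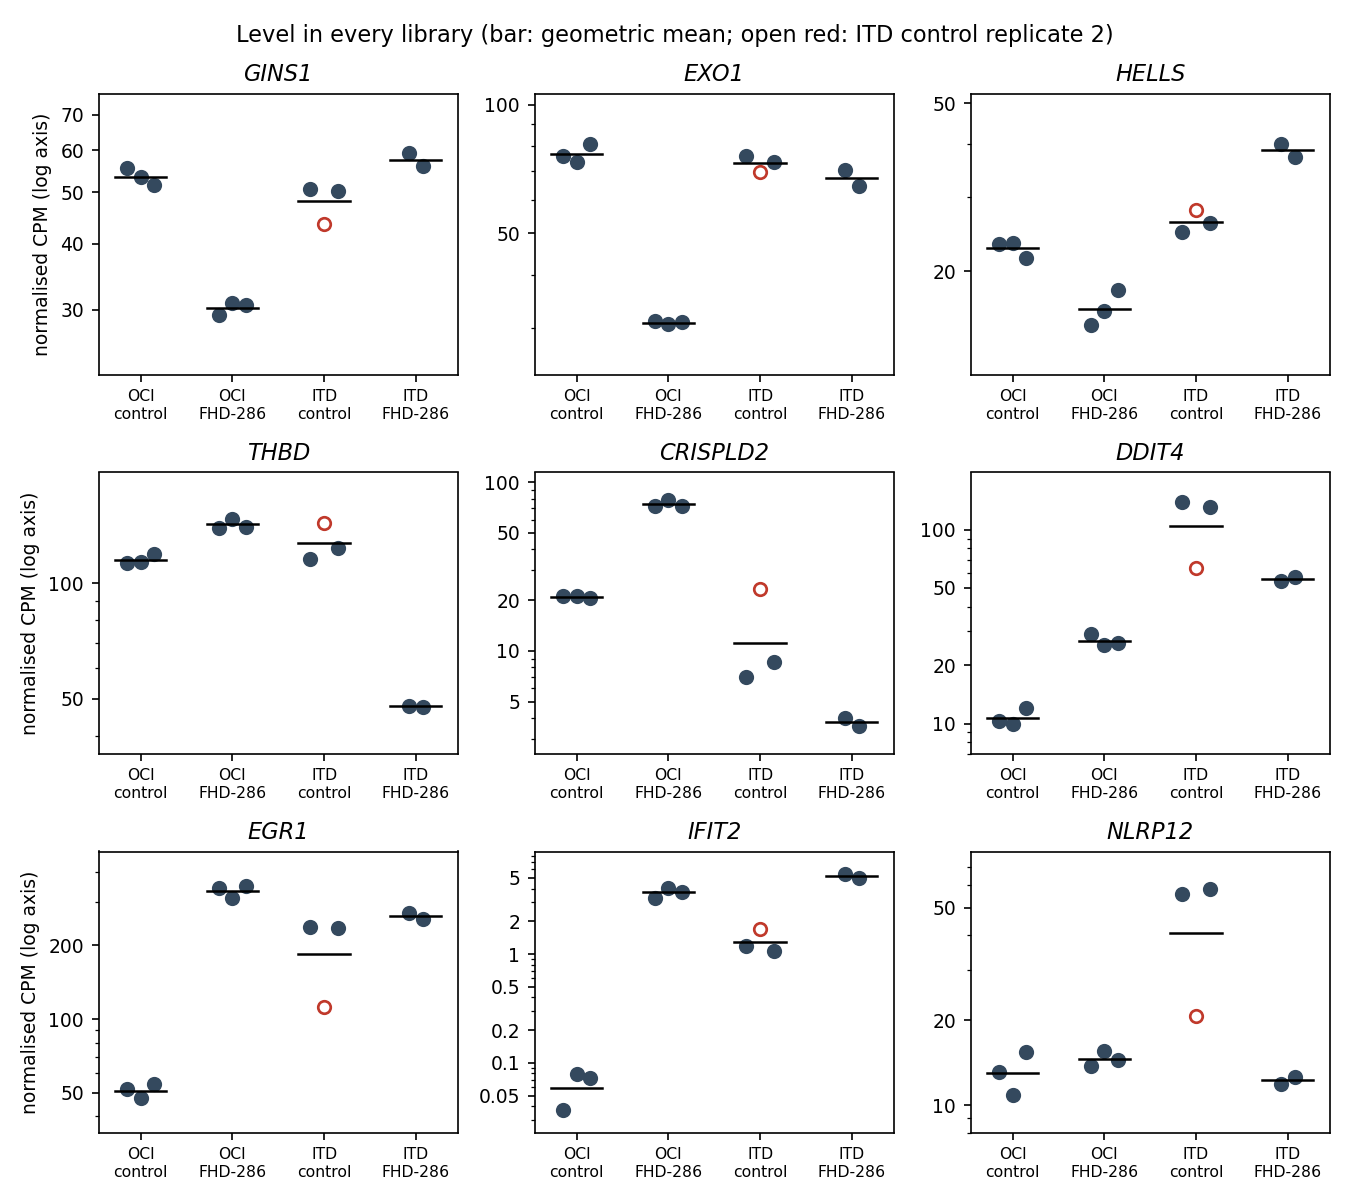
Normalised CPM on a log axis in each library (points) for 9 named genes, by line and treatment, with the geometric mean of each group (bar); OCI is OCI-AML3, ITD is OCI-AML3-FLT3-ITD, and the open red point is FLT3-ITD control replicate 2. GINS1 and HELLS moved down in OCI-AML3 and up in the FLT3-ITD line, THBD, CRISPLD2 and DDIT4 the reverse, and EGR1, IFIT2 and NLRP12 show a called untreated difference and no called treated one.

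Among the 183 genes that moved in the same direction, 123 fell in both lines (52 further in the FLT3-ITD line, 71 further in OCI-AML3) and 60 rose in both (11 and 49). Without FLT3-ITD control 2 the 4 counts were 258, 566, 174 and 348. Larger falls in the FLT3-ITD line were led by ART3, a member of the ADP-ribosyltransferase family, BIN2, a membrane-bending protein of leukocytes, and CD101, an immunoglobulin-like surface protein. ART3 was measured at 29.4, 28.7 and 29.2 CPM in the OCI-AML3 controls, 14.2, 15.2 and 13.8 CPM in treated OCI-AML3, 17.4, 30.7 and 15.4 CPM in the FLT3-ITD controls and 1.98 and 1.68 CPM in treated FLT3-ITD cells. Treated FLT3-ITD cells were lowest, and the fall was -3.53 there against -1.02 in OCI-AML3 (interaction -2.51, SE 0.34, adjusted p 0.00469). BIN2 and CD101 had interactions of -2.04 and -2.37, and for all 3 genes FLT3-ITD control 2 was the highest control, so that without it the values were -2.15, -1.75 and -2.04. Another gene overlaps 10.3% of the exonic bases of CD101.

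Larger falls in OCI-AML3 were led by NEFH, the neurofilament heavy chain, TDRD7, a Tudor domain protein of RNA granules, and ICAM1, a leukocyte adhesion receptor. NEFH was at 197, 194 and 220.5 CPM in the OCI-AML3 controls, 58.6, 59.1 and 55.2 CPM in treated OCI-AML3, 69.6, 89.6 and 68.3 CPM in the FLT3-ITD controls and 57.4 and 53.98 CPM in treated FLT3-ITD cells. Here the groups differed in the untreated state (-1.43) with no called gap after treatment (-0.05), and the changes were -1.82 and -0.45. The interaction was 1.38 (SE 0.15, adjusted p 0.00176) for NEFH and 1.38 (SE 0.11, adjusted p 0.000746) for TDRD7, whose gap turned from -1.08 to 0.3. ICAM1 started at 5.23, 5.03 and 5.19 CPM in OCI-AML3 and 6.86, 6.58 and 8.15 CPM in the FLT3-ITD line. It fell to 0.724, 0.726 and 0.972 CPM in OCI-AML3 but to 3.46 and 2.81 CPM in the FLT3-ITD line (interaction 1.47, adjusted p 0.0105), so the gap widened from 0.48 to 1.95. Of its exonic bases, 23.6% overlap other genes.

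Genes that rose further in the FLT3-ITD line were the smallest of the 4 same-direction kinds in both fits. BIN1, an adaptor protein that binds MYC, went from 3.31, 3.48 and 3.65 to 5.19, 5.22 and 5.05 CPM in OCI-AML3 and from 2.65, 1.76 and 2.05 to 8.36 and 8.81 CPM in the FLT3-ITD line (interaction 1.43, SE 0.22, adjusted p 0.00952). PIK3R3, a regulatory subunit of phosphoinositide 3-kinase with 17.4% of its exonic bases overlapped, and RAB15, an endosomal GTPase, had smaller interactions of 0.75 and 0.64. Larger rises in OCI-AML3 were led by SYNPO, an actin-associated protein, MAML2, a coactivator of Notch, and DYNLT5, a dynein light chain. SYNPO went from 13.9, 14.5 and 17.5 to 83.4, 85.3 and 78.99 CPM in OCI-AML3 and from 23.96, 15.4 and 24.1 to 38.9 and 34.3 CPM in the FLT3-ITD line. The interaction was -1.64 (SE 0.24, adjusted p 0.00675) for SYNPO, -1.48 for MAML2 and -1.4 for DYNLT5. MAML2 showed a called untreated difference (1.255) and no called treated one (-0.22).

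Genes that passed the test in only 1 line had the interaction itself tested, so the difference between the lines does not rest on that split. In OCI-AML3 alone, SHANK1, a scaffold protein, fell from 70.6, 69.1 and 74.4 to 25.5, 25.3 and 24.1 CPM, against 41.99, 42.9 and 50.3 and 43.5 and 51.02 CPM in control and treated FLT3-ITD cells (interaction 1.58, SE 0.13, adjusted p 0.000746). KIAA0040 also fell in OCI-AML3 only (interaction 1.53), although without FLT3-ITD control 2 its fall in the FLT3-ITD line passed as well (-0.77). EGR1, an immediate early transcription factor (ENSG00000120738.7, chromosome 5, 138465490 to 138469315), rose in OCI-AML3 only. Its levels were 51.7, 47.4 and 54.3 CPM in the OCI-AML3 controls, 342, 313 and 350.4 CPM in treated OCI-AML3, 238, 112 and 235 CPM in the FLT3-ITD controls and 270.2 and 255 CPM in treated FLT3-ITD cells. Untreated FLT3-ITD cells were already high (1.93) and the gap after treatment did not pass (-0.35). The interaction was -2.28 (SE 0.34, adjusted p 0.00787), and -2.56 without FLT3-ITD control 2, which lay between the lines. CEBPB, a transcription factor of monocytes and stress with 11.8% of its exonic bases overlapped, went from 28.7, 25.4 and 27.3 to 95.7, 98.2 and 98.8 CPM in OCI-AML3 and from 92.01, 52.6 and 83.7 to 39.7 and 59.96 CPM in the FLT3-ITD line (interaction -2.46, SE 0.3, adjusted p 0.00273). Without FLT3-ITD control 2 its fall in the FLT3-ITD line passed (-0.82), which made its responses opposite.

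In the FLT3-ITD line alone, HSPA1A, the inducible chaperone HSP70, rose from 29.98, 26.5 and 25.9 to 68.8 and 59.2 CPM and came closer to OCI-AML3 (76.9, 77.8 and 92.03 CPM in controls and 75.6, 74.8 and 76.8 CPM treated), with an interaction of 1.34 (SE 0.14, adjusted p 0.00172). HSPA1A has a near-identical copy, between which counting could split reads. RGS16, a brake on G protein signalling, moved away from OCI-AML3, from 48.3, 25.5 and 41.9 to 121 and 109 CPM against 14.7, 13.8 and 15.2 and 17.2, 17.1 and 17.02 CPM (interaction 1.35, SE 0.27, adjusted p 0.0254). NLRP12, a cytosolic sensor protein of myeloid cells, fell from 56.1, 20.7 and 58.2 to 11.9 and 12.6 CPM, the level of OCI-AML3 (13.1, 10.9 and 15.4 and 13.8, 15.5 and 14.5 CPM). FLT3-ITD control 2 was nearer to OCI-AML3 than to its sisters for NLRP12, and the interaction was -2.03 (SE 0.47, adjusted p 0.0438) with it and -2.38 (adjusted p 8.21e-10) without it. NECAB2, a calcium-binding protein, fell from 7.89, 5.095 and 6.21 to 1.95 and 2.18 CPM (interaction -1.79, adjusted p 0.00589).

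An interaction equals the difference between the lines after treatment less that before it, so each called gene was also read by which of these gaps passed the test. Because the gaps share libraries with the interaction, the counts are a description. With all 11 libraries, 283 of the 635 genes (44.6%) had a treated gap only, 168 (26.5%) an untreated gap only, 99 (15.6%) both with equal sign and 85 (13.4%) both with opposite sign. Over all genes tested the untreated gap was called for 28% and the treated gap for 26% (49.4% and 46.9% without FLT3-ITD control 2). FHD-286 widened the gap for 427 genes and narrowed it for 208. Without FLT3-ITD control 2 the gap widened for 1574 and narrowed for 1603 of 3177 called genes. Of these, 2542 were called only in that fit, so the splits cover different sets of genes. That fit held 752 treated gaps only, 925 untreated gaps only, 1213 gaps of equal sign, 258 of opposite sign and 29 with neither. Of the 635 genes, 470 kept their gap class. EXO1 is a case of a treated gap only (untreated -0.07, treated 1.13), EGR1 and NLRP12 are cases of an untreated gap only, RGS16 of a gap that widened and HSPA1A of one that was no longer called.

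**Figure D4:**
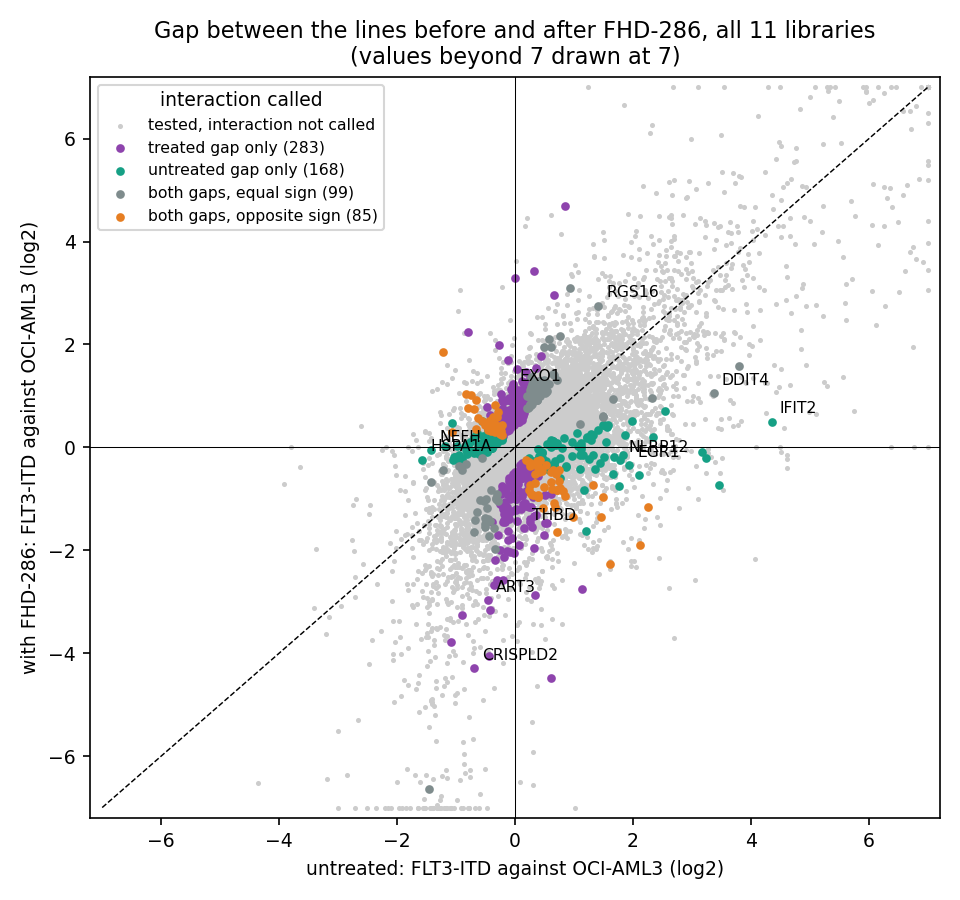
Log2 difference between FLT3-ITD and OCI-AML3 cells when untreated (x axis) against the difference with FHD-286 (y axis), 1 point per gene tested with all 11 libraries; the distance from the dashed diagonal is the interaction. Genes with a treated gap only (purple, 283) run along the vertical zero line and genes with an untreated gap only (green, 168) along the horizontal one.

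In the opposite class an untreated gap alone was the least frequent pattern. Of its 90 genes, 37 had a treated gap only, 12 an untreated gap only, 22 gaps of equal sign and 19 gaps of opposite sign. Among the 183 same-direction genes 70 had a treated gap only and 63 an untreated gap only. Without FLT3-ITD control 2 the opposite class held 57 treated gaps only, 48 untreated gaps only, 140 gaps of equal sign and 64 of opposite sign. The same-direction class then held 296, 386, 566 and 90 in that order, and 8 with neither. Gaps of equal sign were thus the most frequent in both classes without that library. No test of the difference between these shares was made. Called genes were 94% protein coding against 70.3% of genes tested, and they were more frequent at higher expression, from 0.597% of the 6199 genes at or below an average log2 CPM of 0 to 6.03% of the 4344 genes between 4 and 6.

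For every gene list below, the background of interaction calls was 1.98% higher and 1.38% lower, or 9.63% and 7.39% without FLT3-ITD control 2. DNA replication genes mostly had a higher interaction. Of 32 S phase genes, 23 had a higher interaction and none a lower one (background 1.98% higher), the median was 0.86 against -0.01 over all genes, and all 32 values were positive, from 0.36 to 1.26. When FLT3-ITD control 2 was left out, 31 were higher and none lower, with a median of 0.75. The list fell in OCI-AML3 (31 of 32 fell, median -1.0; background 21.5%, or 29.8% without FLT3-ITD control 2). In the FLT3-ITD line 3 rose and 4 fell (median -0.11; background 15.6% and 14.9%), or 4 and 19 (median -0.2; background 24.8% and 24.2%) without that library. The summed level of the list was 5242, 5035 and 5678 CPM in the OCI-AML3 controls, 2668, 2691 and 2593 CPM in treated OCI-AML3, 6795, 4766 and 6423 CPM in the FLT3-ITD controls and 5425 and 5271 CPM in treated FLT3-ITD cells. Treated OCI-AML3 was therefore the group that stood apart. Before treatment 8 genes were higher and 4 lower in the FLT3-ITD line (background 14.5% and 13.5%), and after it 31 were higher (background 14.3%). The untreated count rests on FLT3-ITD control 2: without it 21 were higher and 4 lower (background 24.1% and 25.4%), and after treatment 31 higher (background 24.2%). Leaving out any 1 other library left 6 to 27 genes higher and none lower, with 6 without treated FLT3-ITD replicate 1.

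EXO1, an exonuclease of replication and repair (ENSG00000174371.16, chromosome 1, 241847967 to 241895148), was measured at 75.9, 73.6 and 80.9 CPM in the OCI-AML3 controls, 31.1, 30.6 and 30.9 CPM in treated OCI-AML3, 76.1, 69.6 and 73.6 CPM in the FLT3-ITD controls and 70.5 and 64.5 CPM in treated FLT3-ITD cells. Only treated OCI-AML3 was low, by more than the spread of any group, and the interaction was 1.2 (SE 0.1, adjusted p 0.000746). GINS2, another subunit of the replicative helicase, went from 48.1, 45.9 and 53.2 to 19.3, 18.9 and 18.2 CPM in OCI-AML3 and from 45.9, 40.2 and 40.7 to 37.04 and 34.5 CPM in the FLT3-ITD line (interaction 1.14, SE 0.12, adjusted p 0.00172). Together with GINS1 described above, these had the smallest interaction p-values of the list. Of the S phase genes, 3 were in the opposite class.

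E2F factors are the textbook activators of S phase genes, so promoters were searched for the letters TTTNNCGC on both strands. Promoters were the 250 bases before the start of each gene in RefSeq (GRCh38.p14). The letters were present in 11 of 27 S phase promoters on file (40.7%) against 5.93% of all 27305 promoters and 8.77% of the 11730 promoters of genes tested. They were in 14.4% of 306 promoters of genes with a higher interaction against 4.49% of 178 with a lower one. Within the S phase list, 5 of 20 called members held them (25%) and 6 of 7 members that were not called, and these shares were not tested. Of the opposite genes, 7 of 36 that fell in OCI-AML3 and none of 29 that rose there held the letters. A match describes the sequence and is not a site of binding. EXO1 and GINS1 had no match in this window. The RefSeq window of HELLS lies inside the gene span given above, which comes from another annotation, GENCODE 29. HELLS (chr10:94545538-94545787 on the + strand) had 2 matches and GINS2 (chr16:85688955-85689204 on the - strand) had 1, and they are shown as the named genes of this group with a match, 5′ to 3′ with matches in capitals.
HELLS: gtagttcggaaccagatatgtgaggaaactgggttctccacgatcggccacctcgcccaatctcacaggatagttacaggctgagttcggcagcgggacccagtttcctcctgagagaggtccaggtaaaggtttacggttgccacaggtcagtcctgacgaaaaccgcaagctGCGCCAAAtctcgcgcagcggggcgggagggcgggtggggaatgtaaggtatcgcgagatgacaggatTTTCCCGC
GINS2: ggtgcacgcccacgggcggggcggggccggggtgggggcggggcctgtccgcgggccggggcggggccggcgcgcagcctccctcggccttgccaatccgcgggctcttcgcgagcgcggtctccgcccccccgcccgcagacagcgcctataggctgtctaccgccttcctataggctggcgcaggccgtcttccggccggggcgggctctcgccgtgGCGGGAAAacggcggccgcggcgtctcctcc

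Mitotic genes followed with a different shape. Of 32 G2 and M phase genes, 16 had a higher interaction and none a lower one (median 0.59, range 0.33 to 1.0), and 31 and none without FLT3-ITD control 2 (median 0.5). In OCI-AML3 11 fell (median -0.24; background 21.5%) and in the FLT3-ITD line 18 rose (median 0.39; background 15.6%). In the fit without FLT3-ITD control 2, 21 fell and 2 rose in OCI-AML3 (background 29.8% and 29%). In the FLT3-ITD line 22 then rose and 1 fell (background 24.8% and 24.2%). Their summed level was 3265, 3248 and 3289.5 CPM in the OCI-AML3 controls, 2828, 2825 and 2846 CPM in treated OCI-AML3, 4321, 3672 and 4469.7 CPM in the FLT3-ITD controls and 5547 and 5352 CPM in treated FLT3-ITD cells. Here treated FLT3-ITD cells were above all other libraries. KIF11, the kinesin that separates spindle poles (ENSG00000138160.5, chromosome 10, 92593286 to 92655395), was at 112, 114 and 106 CPM in the OCI-AML3 controls, 107, 109.6 and 111 CPM in treated OCI-AML3, 118, 124 and 127 CPM in the FLT3-ITD controls and 209 and 195 CPM in treated FLT3-ITD cells. Its change in OCI-AML3 did not pass (-0.02) and rose in the FLT3-ITD line (0.71), with an interaction of 0.73 (SE 0.09, adjusted p 0.00323). BUB1B, a spindle checkpoint kinase, and NUSAP1, a spindle microtubule protein, were opposite, with interactions of 0.8 and 0.77. Other genes overlap 10.2% and 62.2% of their exonic bases. Without 1 other library 3 to 23 genes of the list were higher and none lower, with 3 each without treated FLT3-ITD replicate 1 and without treated OCI-AML3 replicate 3. In bulk RNA, fewer cells of a type and less RNA per cell cannot be told apart, so shares of cells in each phase were not measured.

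**Figure D5:**
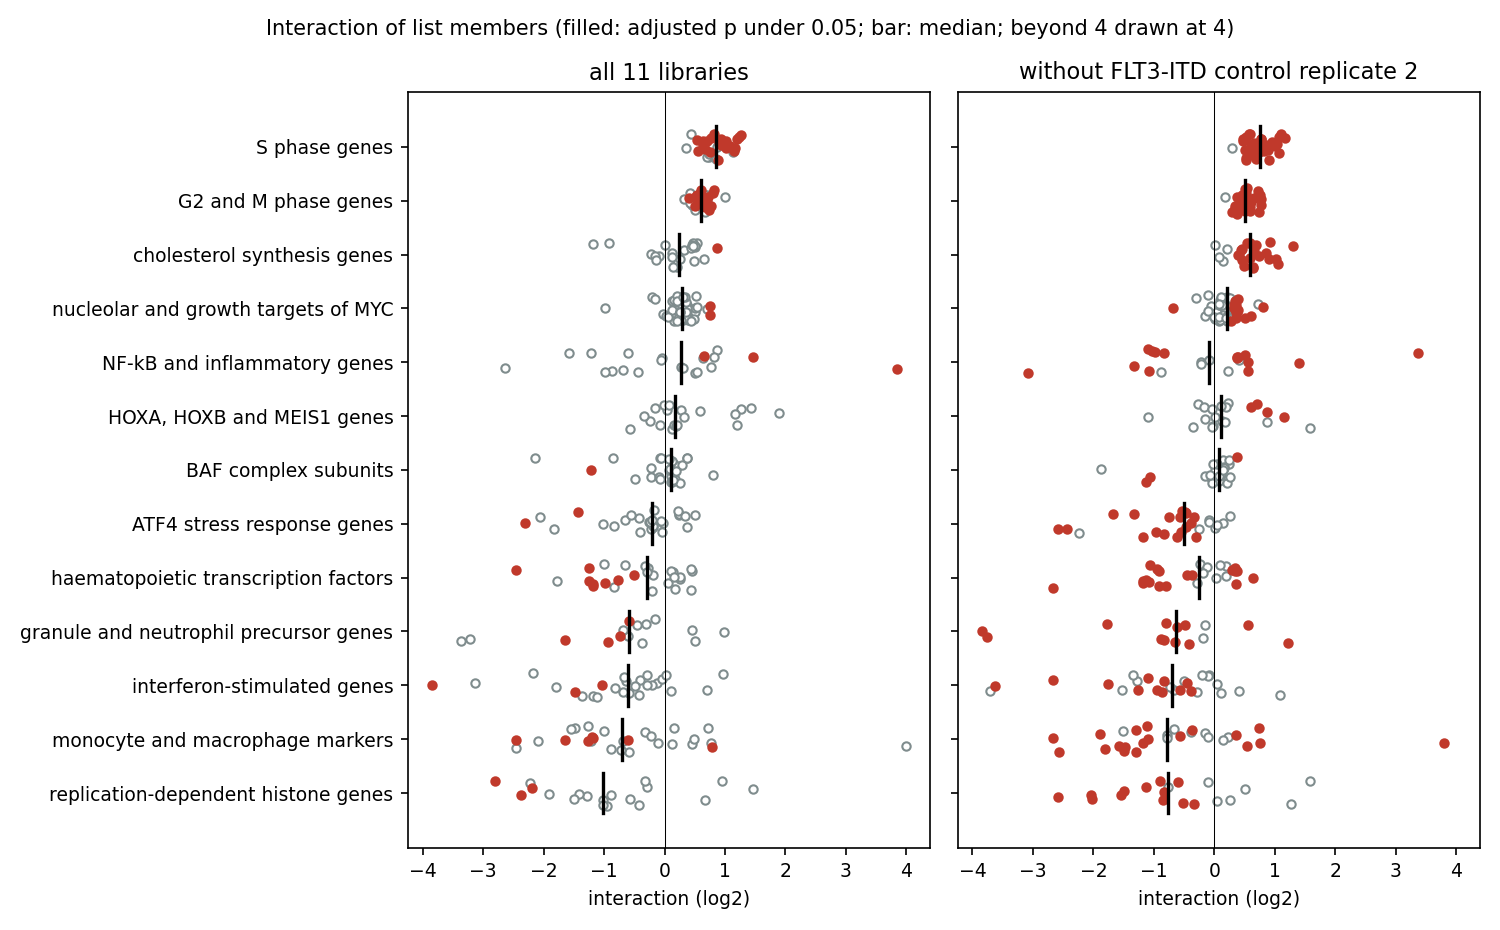
Interaction on the log2 scale (x axis) of each tested member of 13 gene lists, with all 11 libraries (left) and without FLT3-ITD control replicate 2 (right); filled points passed the test and bars are medians. S phase and G2 and M phase genes lie right of zero in both panels, histone, monocyte and interferon-stimulated genes mostly left of it, and cholesterol synthesis genes move right when the library is left out.

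Replication-dependent histone genes had no higher interaction. None of 19 was higher and 3 were lower (background 1.38%), with a median of -1.01. With FLT3-ITD control 2 left out, 12 were lower (median -0.76). In OCI-AML3 13 rose, with a median of 1.65 (background 19.8%), and in the FLT3-ITD line 5, with a median of 0.6 (background 15.6%). Without that library 14 rose in OCI-AML3 and 10 in the FLT3-ITD line (background 29% and 24.8%). Their summed level was 77.9, 70.03 and 79.7 CPM in the OCI-AML3 controls, 312, 285 and 308 CPM in treated OCI-AML3, 41.7, 91.9 and 39.1 CPM in the FLT3-ITD controls and 79.05 and 86.5 CPM in treated FLT3-ITD cells. H2BC4, an H2B gene, went from 0.932, 0.781 and 1.11 to 6.77, 6.59 and 6.86 CPM in OCI-AML3 and from 1.36, 1.602 and 1.02 to 2.33 and 1.82 CPM in the FLT3-ITD line (interaction -2.19, SE 0.3, adjusted p 0.00562). H2BC8 and H4C8 had interactions of -2.81 and -2.37. Histone messages mostly lack poly(A) tails, the selection of RNA was not given in the sources used here, and counts may be split between near-identical copies.

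Interferon-stimulated genes had no higher interaction. Of 26, 3 had a lower interaction and none a higher one, or 11 and none without FLT3-ITD control 2, with medians of -0.61 and -0.7. Untreated FLT3-ITD cells were higher for 18 of them (median 1.16; background 14.5%) and treated ones for 5 (median 0.36; background 14.3%). Without FLT3-ITD control 2 these counts were 17 and 12 (background 24.1% and 24.2%). The difference between the untreated and treated counts was not tested. The 3 called genes encode IFIT proteins, which bind foreign RNA. IFIT2 stood at 0.0365, 0.0781 and 0.0718 CPM in the OCI-AML3 controls, 3.28, 4.07 and 3.73 CPM in treated OCI-AML3, 1.18, 1.703 and 1.07 CPM in the FLT3-ITD controls and 5.45 and 4.98 CPM in treated FLT3-ITD cells. It rose in both lines, and its interaction of -3.85 (SE 0.39, adjusted p 0.00161) came with an untreated gap of 4.35 and a treated gap of 0.5 that did not pass. The OCI-AML3 control values rest on 11 counts in all 3 libraries, so the size of these folds is imprecise. On the linear CPM scale IFIT2 rose slightly more in the FLT3-ITD line, so the sign of its interaction depends on the scale. IFIT3 went from 2.17, 2.19 and 2.21 to 7.67, 7.32 and 6.79 CPM in OCI-AML3 and from 5.88, 4.94 and 5.28 to 9.64 and 7.74 CPM in the FLT3-ITD line (interaction -1.03, SE 0.19, adjusted p 0.0192), and IFIT1 had an interaction of -1.48. Another gene overlaps 10.3% of IFIT2, and the IFIT genes are related copies. ISG15, a ubiquitin-like protein, had an interaction of 0.7 that did not pass.

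The interferon response element was searched on both strands as TTTC, any 2 bases, then TTTC. It was in 11 of 18 promoters of the list (61.1%) against 3.07% of all promoters, in both promoters on file of the called genes and in 9 of 16 that were not called. IFIT3 (chr10:89327747-89327996 on the + strand) and IFIT1 (chr10:89392373-89392622 on the + strand) are shown because they rose in both lines from different untreated levels, with matches in capitals.
IFIT3: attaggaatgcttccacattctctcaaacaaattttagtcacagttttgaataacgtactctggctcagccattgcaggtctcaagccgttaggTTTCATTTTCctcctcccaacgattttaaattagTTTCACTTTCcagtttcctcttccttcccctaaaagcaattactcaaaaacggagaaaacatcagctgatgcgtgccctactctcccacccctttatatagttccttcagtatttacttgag
IFIT1: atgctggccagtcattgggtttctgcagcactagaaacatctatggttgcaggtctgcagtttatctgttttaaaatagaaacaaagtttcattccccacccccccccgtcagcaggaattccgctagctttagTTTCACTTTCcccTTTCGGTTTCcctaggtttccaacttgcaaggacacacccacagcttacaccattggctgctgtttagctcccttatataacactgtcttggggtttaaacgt

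Myeloid lists held more lower than higher calls with all 11 libraries. Over all genes tested 1.98% were higher and 1.38% lower, or 9.63% and 7.39% without FLT3-ITD control 2. These backgrounds apply to the monocyte, granule, transcription factor and surface marker lists. Of 28 monocyte and macrophage markers, 6 had a lower and 1 a higher interaction (median -0.71), or 14 and 5 without FLT3-ITD control 2 (median -0.78). MNDA, a nuclear protein of myeloid cells, was opposite, at 253, 240.2 and 255 CPM in the OCI-AML3 controls, 368, 383 and 373 CPM in treated OCI-AML3, 218, 168 and 197 CPM in the FLT3-ITD controls and 142 and 112 CPM in treated FLT3-ITD cells (interaction -1.2, SE 0.16, adjusted p 0.00458). KLF4, a transcription factor of monocytes, went from 12.2, 12.8 and 11.9 to 23.8, 22.8 and 23.1 CPM in OCI-AML3 and from 14.04, 14.6 and 15.7 to 11.9 and 12.8 CPM in the FLT3-ITD line (interaction -1.18, adjusted p 0.00172). LYZ, lysozyme, was the exception with 0.79: it fell in both lines, from 199.6, 185 and 198 CPM in OCI-AML3 and 89.5, 77.02 and 83.1 CPM in the FLT3-ITD line to 12.6, 15.04 and 12.9 CPM and 10.96 and 9.104 CPM. Of the exonic bases of LYZ, 33.96% overlap another gene.

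Of 15 granule and neutrophil precursor genes, 4 were lower and none higher (median -0.6), or 10 and 2 without that library. MS4A3, a membrane protein of granulocyte precursors, fell from 215, 210.2 and 206 to 59.6, 62.9 and 59.8 CPM in OCI-AML3 and from 202, 228 and 181 to 36.9 and 33.9 CPM in the FLT3-ITD line (interaction -0.74, SE 0.13, adjusted p 0.0127). CSF3R, the receptor of the granulocyte growth factor, started higher in the FLT3-ITD line (0.64) and had no called gap after treatment (0.04), with an interaction of -0.6. PRTN3, a granule protease, had 0.51, which did not pass with all libraries and did without that one (0.57, adjusted p 0.00131).

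Of 27 haematopoietic transcription factors, 8 were lower and none higher (median -0.28), or 12 and 6 without FLT3-ITD control 2 (median -0.26). SPI1, which encodes PU.1 (ENSG00000066336.11, chromosome 11, 47354860 to 47378576), was at 310.3, 303 and 345 CPM in the OCI-AML3 controls, 42.2, 49.1 and 42.2 CPM in treated OCI-AML3, 316, 284 and 271 CPM in the FLT3-ITD controls and 23.1 and 24.1 CPM in treated FLT3-ITD cells. The controls of the lines overlapped, and treated FLT3-ITD cells were below treated OCI-AML3 cells (-0.91), so that the interaction was -0.78 (SE 0.13, adjusted p 0.0128), and -0.79 without that library. On the linear CPM scale the fall of SPI1 was slightly larger in OCI-AML3, so the sign of its interaction turned there. CEBPA, a master factor of granulocytes, fell from 284, 265 and 309 to 205, 209 and 194 CPM in OCI-AML3 and from 244, 288 and 214 to 56.8 and 91.3 CPM in the FLT3-ITD line (interaction -1.250, SE 0.24, adjusted p 0.0218), with 43.4% of its exonic bases overlapped. GFI1, a repressor in granulocyte development, was opposite, from 159.9, 154 and 159 to 232, 236 and 230.3 CPM and from 198, 163 and 202 to 134 and 146 CPM (interaction -0.99, SE 0.12, adjusted p 0.00358).

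Of 15 AML stem and blast surface markers, 3 were lower, or 7 lower and 1 higher without FLT3-ITD control 2, and the median moved from -0.63 to -0.34. That library held 3736 CPM of the list against 1279 and 1220.5 CPM in its sisters and 3182 to 3555 CPM in the OCI-AML3 controls. CSF2RB, the shared receptor chain of several growth factors, fell from 49.1, 46.2 and 50.5 to 14.5, 13.5 and 13.3 CPM in OCI-AML3 and from 34.1, 46.2 and 35.4 to 3.61 and 3.42 CPM in the FLT3-ITD line (interaction -1.64, SE 0.17, adjusted p 0.00172). IL1RAP, a coreceptor of interleukin-1, had -0.79. CD33, a blast antigen, had 0.29, which did not pass (adjusted p 0.313) except without FLT3-ITD control 2 (0.42, adjusted p 0.0029). The integrins of leukocytes ITGAL and ITGAM had -1.26 and -1.66.

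Genes of the amino acid stress response under ATF4 were mostly higher in the FLT3-ITD line before treatment. Untreated FLT3-ITD cells were higher for 25 of 26 (median 1.38; background 14.5%), and treated ones for 18 (median 1.13; background 14.3%). Without FLT3-ITD control 2 these counts were 26 and 24 (background 24.1% and 24.2%). The interaction was lower for 2 with all libraries (median -0.21; background 1.38%) and for 18 without FLT3-ITD control 2 (median -0.5; background 7.39%). Its median was 0.01 without FLT3-ITD control replicate 1. The summed level was 3029.9, 2963 and 3258 CPM in the OCI-AML3 controls, 2172, 2129 and 2144 CPM in treated OCI-AML3, 9225, 4213 and 8753 CPM in the FLT3-ITD controls and 4918 and 4775 CPM in treated FLT3-ITD cells, so the library left out was the lowest of its group. CTH, an enzyme of cysteine synthesis, went from 21.6, 12.6 and 23.95 to 6.702 and 6.19 CPM in the FLT3-ITD line, against 6.89, 6.53 and 6.48 and 6.08, 5.84 and 6.01 CPM in OCI-AML3 (interaction -1.44, SE 0.3, adjusted p 0.0287). SLC7A11, the cystine transporter, had -2.06 (adjusted p 0.0643), and -2.44 (adjusted p 6.32e-10) without that library. ATF4 itself had 0.51, not called in either fit.

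Cholesterol synthesis genes rested on the same library. With all 11 libraries 1 of 24 was higher, ACAT2, with 0.86 and 52.3% of its exonic bases overlapped. Once FLT3-ITD control 2 was left out, 20 were higher and none lower, and the median went from 0.24 to 0.59. In that fit 21 were lower in untreated FLT3-ITD cells, against 2 with all libraries (background 25.4% and 13.5%). The summed level was 2738, 2671 and 2916 CPM in the OCI-AML3 controls, 1708, 1705 and 1695 CPM in treated OCI-AML3, 1987, 3168 and 1916 CPM in the FLT3-ITD controls and 1694 and 1689.6 CPM in treated FLT3-ITD cells. NSDHL, a sterol dehydrogenase, had an interaction of 0.5 (adjusted p 0.175) with the library and 0.65 (adjusted p 0.000576) without it.

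Of 47 nucleolar and growth targets of MYC, 2 were higher and none lower (median 0.29), or 14 and 1 without FLT3-ITD control 2. The fall was called for 45 in OCI-AML3 (median -0.92; background 21.5%) and 38 in the FLT3-ITD line (median -0.63; background 14.9%), and 0 of the list were opposite. Before treatment 28 were lower and none higher in the FLT3-ITD line (median -0.37; background 13.5% lower). After it 7 were lower and 1 higher (median -0.08; background 11.7% lower). Without FLT3-ITD control 2 the lower counts were 31 before and 15 after treatment (background 25.4% and 22.8%). The called genes were TMEM97, a sterol regulator (0.75, 11.9% of exonic bases overlapped), and ODC1, which starts polyamine synthesis (0.75). MYC itself was at 813, 781 and 871 CPM in the OCI-AML3 controls, 223, 233 and 218 CPM in treated OCI-AML3, 639, 759 and 598 CPM in the FLT3-ITD controls and 200.2 and 178 CPM in treated FLT3-ITD cells. It fell in both lines (-1.87 and -1.82), and its interaction of 0.06 (SE 0.14, adjusted p 0.87) did not pass.

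FLT3 itself had no called interaction. FLT3 (ENSG00000122025.14, chromosome 13, 28003274 to 28100592) was at 43.3, 41.1 and 41.5 CPM in the OCI-AML3 controls, 42.04, 39.2 and 43.1 CPM in treated OCI-AML3, 178, 53.4 and 203 CPM in the FLT3-ITD controls and 171 and 169 CPM in treated FLT3-ITD cells. Its gap between lines was present before and after treatment (1.79 and 2.04), FLT3-ITD control 2 was the library nearest to OCI-AML3, and the interaction was 0.25 (SE 0.53, adjusted p 0.838), or -0.15 (adjusted p 0.357) without that library. Of 22 pathway components, 1 was lower, GAB2, an adaptor of the receptor, which was opposite at 33.5, 32.4 and 34.8 and 48.2, 45.9 and 46.9 CPM in OCI-AML3 and 27.2, 39.1 and 28.7 and 23.3 and 23.5 CPM in the FLT3-ITD line (interaction -0.92, SE 0.18, adjusted p 0.0233). Of 16 FLT3 and STAT5 targets, PIM2, a survival kinase, was higher and also opposite, at 41.7, 37.9 and 43.9 and 35.3, 33.98 and 33.9 CPM in OCI-AML3 and 33.9, 28.03 and 31.3 and 43.4 and 42.8 CPM in the FLT3-ITD line (interaction 0.73, SE 0.13, adjusted p 0.0136). ST3GAL1, a sialyltransferase, was lower (-0.57). In the fit without FLT3-ITD control 2 the counts were 0 higher and 7 lower components and 3 higher and 6 lower targets, against backgrounds of 9.63% higher and 7.39% lower.

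The targets of the drug themselves showed no called interaction. SMARCA4 was at 438, 464 and 515 CPM in the OCI-AML3 controls, 378, 382 and 384 CPM in treated OCI-AML3, 414, 362 and 439 CPM in the FLT3-ITD controls and 366 and 374 CPM in treated FLT3-ITD cells, with an interaction of 0.18 (SE 0.13, adjusted p 0.488). SMARCA2 was at 81.3, 85.7 and 84.7 CPM in the OCI-AML3 controls, 92.1, 93.1 and 93.5 CPM in treated OCI-AML3, 98.6, 92.4 and 113 CPM in the FLT3-ITD controls and 124 and 126 CPM in treated FLT3-ITD cells, with 0.15 (SE 0.11, adjusted p 0.51). These p-values do not show that the lines respond alike. Of 28 BAF complex subunits, SMARCD3, an alternative subunit with 13.8% of its exonic bases overlapped, was lower (-1.22, adjusted p 0.018), a share near the background of 3.36%.

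Signalling outputs were mixed. Of 21 NF-kB and inflammatory genes, 3 were higher and none lower, but 8 higher and 7 lower without FLT3-ITD control 2, and the median turned from 0.27 to -0.09. Before treatment 16 were higher in the FLT3-ITD line (median 0.85; background 14.5%) and after it 13 (median 1.06; background 14.3%), with none lower. Without FLT3-ITD control 2 these counts were 18 and 16 (background 24.1% and 24.2%). BIRC3, an inhibitor of apoptosis, was at 0.0914, 0.0625 and 0.108 and 0.161, 0.0649 and 0.0648 CPM in OCI-AML3, 0.213, 0.0289 and 0.225 CPM in the FLT3-ITD controls and, in treated FLT3-ITD cells, 2.94 and 2.16 CPM (interaction 3.85, SE 0.89, adjusted p 0.0442). Outside treated FLT3-ITD cells BIRC3 held few counts, at 0.225 CPM or less, so the size of this fold is imprecise. NFKBIA, the inhibitor of NF-kB, rose from 74.6, 55.9 and 62.5 to 102 and 101 CPM in the FLT3-ITD line, against 49.7, 47.4 and 48.1 and 50.99, 47.7 and 47.4 CPM in OCI-AML3 (interaction 0.65, adjusted p 0.0341). Of 21 ERK pathway output genes, 3 were lower, the early factors EGR1 and EGR2 (-2.14) and the phosphatase DUSP1 (-1.15). EGR2 and DUSP1 had untreated gaps of 2.34 and 1.29 and no called treated gap, as EGR1 did.

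Cell death, cell cycle inhibitor and antigen presentation genes added further calls. BCL2A1, a survival protein of the BCL2 family, was opposite, at 1.24, 1.27 and 1.56 CPM in the OCI-AML3 controls, 2.801, 2.82 and 3.33 CPM in treated OCI-AML3, 2.42, 1.46 and 2.04 CPM in the FLT3-ITD controls and 1.22 and 0.9397 CPM in treated FLT3-ITD cells (interaction -2.0, SE 0.32, adjusted p 0.0106). CDKN2B, an inhibitor of cyclin D dependent kinases, rose from 1.72, 1.89 and 1.67 to 16.6, 16.4 and 17.6 CPM in OCI-AML3 and from 1.79, 2.02 and 1.84 to 7.65 and 7.18 CPM in the FLT3-ITD line, with an interaction of -1.28 (SE 0.16, adjusted p 0.00397) and an untreated gap of 0.09 that did not pass. HLA-E, a class I molecule seen by natural killer cells, rose in OCI-AML3 only, from 566, 539.6 and 601 to 1131, 1036 and 1129 CPM against 702, 783 and 615 and 581 and 582 CPM (interaction -1.22, adjusted p 0.00212). NLRC5, the activator of class I genes, fell in the FLT3-ITD line only (interaction -0.75). POLH, a repair polymerase among 25 p53 targets, rose further in the FLT3-ITD line (interaction 0.59, adjusted p 0.0461).

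The remaining lists are given by their counts, against a background of 3.36% with all 11 libraries and 17% without FLT3-ITD control 2. With all 11 libraries, 0 higher and 2 lower of 19 AP-1 and immediate early genes, 0 higher and 2 lower of 15 class I antigen presentation genes and 0 higher and 1 lower of 15 BCL2 family genes passed. The counts were 0 and 1 of 19 AML growth and survival regulators, 2 and 3 of 26 integrin and adhesion genes and 1 and 3 of 8 myeloid line identity markers, and 1 and 0 of the p53 targets. No member passed the edgeR test among 4 class II antigen presentation genes (1 at an unadjusted p under 0.05, 0 by DESeq2), 20 HOXA, HOXB and MEIS1 genes (3 at an unadjusted p under 0.05, 0 by DESeq2), 27 hypoxia and glycolysis genes (3 at an unadjusted p under 0.05, 2 by DESeq2), 32 cytosolic ribosomal protein genes (0 at an unadjusted p under 0.05, 0 by DESeq2), 13 mitochondrially encoded genes (0 at an unadjusted p under 0.05, 0 by DESeq2), 4 erythroid and megakaryocyte markers (1 at an unadjusted p under 0.05, 0 by DESeq2) and 4 stromal and epithelial markers (2 at an unadjusted p under 0.05, 1 by DESeq2). With FLT3-ITD control 2 left out, the counts of higher and lower genes were 1 and 8 for AP-1 and immediate early genes, 1 and 2 for class I antigen presentation genes, 1 and 4 for BCL2 family genes, 3 and 2 for AML growth and survival regulators, 3 and 8 for integrin and adhesion genes and 2 and 4 for myeloid line identity markers, and 7 and 2 for p53 targets. They were 1 and 0 for class II antigen presentation genes, 4 and 0 for HOXA, HOXB and MEIS1 genes, 4 and 3 for hypoxia and glycolysis genes, 0 and 0 for cytosolic ribosomal protein genes, 0 and 0 for mitochondrially encoded genes, 2 and 0 for erythroid and megakaryocyte markers and 0 and 1 for stromal and epithelial markers. Mitochondrially encoded genes summed to 69962 CPM in FLT3-ITD control 2 and to 35979 to 59175 CPM in the other libraries. Of 6 lymphoid markers, EBF1, a B cell factor, was lower (-2.69, adjusted p 0.0484). It was at 3.55, 3.39 and 3.45 CPM in treated OCI-AML3 and at 0.713 CPM or less elsewhere. The lymphoid list summed to 27.7, 3.62 and 28.5 CPM in the FLT3-ITD controls and to between 3.47 and 4.75 CPM in the other groups, while CD3E stayed at 0. Its part in the results was not tested.

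Some interactions were called only when FLT3-ITD control 2 was left out. MATK, a kinase of blood cells, and ZNF718, a zinc finger protein, had no counts in FLT3-ITD controls 1 and 3, and stood in the library left out at 45.6 and 17.7 CPM, against 67.5, 63.6 and 70.7 and 13.4, 14.7 and 11.8 CPM in the OCI-AML3 controls. Treated FLT3-ITD cells held 0.0275 and 0.0244 CPM of MATK and 0.0549 and 0.0488 CPM of ZNF718, so no fold is given. MS4A6A, a membrane protein of monocytes, went from 6.85, 6.77 and 6.52 to 0.0402, 0.01297 and 0 CPM in OCI-AML3 and from 66.9, 2.96 and 59.2 to 2.69 and 2.33 CPM in the FLT3-ITD line, and treated OCI-AML3 rests on 4 counts in all, so the size of its interaction is not given. IL1B, the inflammatory cytokine, went from 12.9, 11.9 and 12.8 to 51.6, 60.6 and 50.4 CPM in OCI-AML3 and from 104, 21.4 and 88.5 to 57.8 and 40.97 CPM in the FLT3-ITD line. Its interaction was -2.64 (adjusted p 0.0563) with the library and -3.08 (adjusted p 1.18e-10) without it. UNC5B, a netrin receptor, and LINC01127, a long noncoding RNA, had -2.68 and -2.59 without it. For UNC5B the library held 0.577 CPM against 21.4 and 21.9 CPM in its sisters.

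Of the 72 named genes with a called interaction, 30 kept the call when each of the 11 libraries was left out in turn. They included the opposite genes HELLS, GINS1, ERCC6L, BUB1B, NUSAP1, THBD, RIN3, ARHGEF3, MNDA and GFI1, and EXO1, GINS2, KIF11, NEFH, TDRD7, SHANK1, MAML2, CDKN2B, CEBPB, KLF4 and HSPA1A. A further 14 lost the call without a treated FLT3-ITD library only, among them CRISPLD2 (adjusted p up to 0.0715), DDIT4 (0.0729), ESCO2 (0.057), ICAM1 (0.0745) and EGR1 (0.0654). The other 28 lost it without at least 1 further library, and these were ACAT2, BIRC3, CEBPA, CSF3R, CTH, DUSP1, EBF1, F2RL3, GAB2, H4C8, IFIT1, IFIT3, ITGAM, KIAA0040, LYZ, MPO, NFKBIA, NLRC5, NLRP12, ODC1, PIK3R3, PIM2, POLH, RAB15, RGS16, SMARCD3, SPI1 and ST3GAL1. For SPI1 that library was OCI-AML3 control replicate 1. Its call was also lost without either treated FLT3-ITD library, and without replicate 1 of these the interaction was -0.75. None of the 72 changed sign in these fits.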

How the data were processed

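RNA-seq read counts per gene for the 11 libraries were analysed as deposited. The authors' count table holds whole-number counts, not normalised, and the alignment used STAR with the hg38 genome per the submitters' processing notes. How reads were counted, with which strand setting and annotation, and how RNA was selected are not given in the sources used here. Identifiers (58037) were matched to GENCODE 29, which gave 57388 matches and 56948 symbols. Columns were tied to samples by library name.

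One negative binomial model with a mean per group was fitted to the counts (edgeR 4.0.16, R 4.3.3) with TMM scaling, the filterByExpr filter (minimum count 10, minimum total 15) and quasi-likelihood F tests, two-sided, with Benjamini-Hochberg adjustment over all genes tested and a threshold of 0.05. The same fit gave the FHD-286 effect in each line and the gap between lines before and after treatment. SE is the absolute log2 value divided by the root of F. The rule also asks for a fit without FLT3-ITD control replicate 2. Alternatives used limma 3.58.1 and DESeq2 1.42.0, other scalings and filters, a replicate block, a minimum log2 difference of 1 and each library left out. The scripts were tested on simulated data.

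The opposite, same-direction and one-line genes named by rank were called in both fits and averaged log2 CPM 2 or more. They were ranked by the smaller absolute interaction. Genes called in 1 fit only needed the same minimum level. FLT3, SMARCA4, SMARCA2, MYC, SPI1 and the list members needed neither a call nor that minimum. The rule took the first 5 opposite genes of each orientation, 3 same-direction genes of each of 4 kinds, 2 one-line genes of each of 4 kinds, the 3 of each sign called in 1 fit only, FLT3, SMARCA4, SMARCA2, MYC and SPI1, and for each of 31 gene lists up to 3 members with the smallest p and 1 of the minority direction. Members and lists were chosen with earlier results of these data known. Promoter sequences came from RefSeq on GRCh38.p14.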

Additional observations from a re-analysis of the deposited data

Results flagged for a closer look

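Of the 133 genes named by the rule, 72 had effects of FHD-286 that differed between the 2 lines by the interaction test, 28 higher and 44 lower, and all 72 were also called without FLT3-ITD control replicate 2. They are given here as log2 interactions with all 11 libraries, with no explanation. The rule names genes partly by small p-values, so their number is no measure of how frequent such differences are.

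Opposite responses had a higher interaction of 1.4 for F2RL3, 1.29 for ESCO2, 1.15 for ERCC6L, 1.08 for GINS1, 1.03 for HELLS, 0.8 for BUB1B, 0.77 for NUSAP1 and 0.73 for PIM2. The lower ones were -0.92 for GAB2, -0.99 for GFI1, -1.2 for MNDA, -1.47 for ARHGEF3, -1.53 for RIN3, -1.72 for THBD, -2.0 for BCL2A1, -2.31 for DDIT4 and -3.59 for CRISPLD2.

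Responses in the same direction of different size had a higher interaction of 1.47 for ICAM1, 1.43 for BIN1, 1.38 for TDRD7, 1.38 for NEFH, 0.79 for LYZ, 0.75 for TMEM97, 0.75 for PIK3R3, 0.64 for RAB15 and 0.59 for POLH. The lower ones were -0.6 for CSF3R, -0.74 for MS4A3, -0.78 for SPI1, -1.03 for IFIT3, -1.250 for CEBPA, -1.26 for ITGAL, -1.28 for CDKN2B, -1.4 for DYNLT5, -1.48 for MAML2, -1.48 for IFIT1, -1.64 for CSF2RB, -1.64 for MPO, -1.64 for SYNPO, -2.04 for BIN2, -2.14 for EGR2, -2.19 for H2BC4, -2.37 for CD101, -2.51 for ART3 and -3.85 for IFIT2.

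Responses that passed in OCI-AML3 only had a higher interaction of 1.58 for SHANK1, 1.53 for KIAA0040, 1.2 for EXO1, 1.14 for GINS2, 0.86 for ACAT2 and 0.75 for ODC1. The lower ones were -0.79 for IL1RAP, -1.15 for DUSP1, -1.18 for KLF4, -1.22 for HLA-E, -2.28 for EGR1, -2.37 for H4C8, -2.46 for CEBPB, -2.69 for EBF1 and -2.81 for H2BC8.

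Responses that passed in the FLT3-ITD line only had a higher interaction of 3.85 for BIRC3, 1.35 for RGS16, 1.34 for HSPA1A, 0.73 for KIF11 and 0.65 for NFKBIA. The lower ones were -0.57 for ST3GAL1, -0.75 for NLRC5, -1.22 for SMARCD3, -1.44 for CTH, -1.66 for ITGAM, -1.79 for NECAB2 and -2.03 for NLRP12.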

How the results depend on the processing

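With all 11 libraries 635 genes had a called interaction, of which 90 were opposite, 168 had an untreated gap only and 283 a treated gap only. In that order, limma voom with sample quality weights gave 3059, 302, 960 and 793, and library totals without FLT3-ITD control replicate 2, an alternative chosen after seeing the data, gave 3018, 320, 806 and 700. DESeq2's Wald test gave 1441 called genes, 447 untreated gaps only and 605 treated gaps only. A minimum log2 difference of 1 gave 3, 2, 1 and 2. Without the filter 676 genes were called, 55 were opposite and 40.7% were higher. By sign alone 305 were opposite. Leaving out 1 library gave 105 to 3177 called genes, 20 to 309 opposite genes, 25 to 925 untreated gaps only and 48 to 752 treated gaps only, lowest without treated FLT3-ITD replicate 1 and highest without FLT3-ITD control replicate 2. The share higher was 38.4% without treated OCI-AML3 replicate 3. The causes were not tested, except that fits with fewer libraries have fewer residual degrees of freedom.

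Library totals moved the median of all genes from 0.01 to 0.17 in OCI-AML3 and from -0.02 to 0.09 in the FLT3-ITD line, and that of the interaction to -0.06. The named genes MATK and ZNF718 turned sign; both were at 0 in FLT3-ITD controls 1 and 3, so the fitted values are no folds. MATK had 4.98 with voom, 7.07 without FLT3-ITD control replicate 2 and 7.0 with library totals without it, and ranged down to -6.59 (without FLT3-ITD control replicate 3). ZNF718 had 4.58 without FLT3-ITD control replicate 2 and -7.72 without replicate 3. The depth of 58397190 to 79172389 counts limits genes near 3 counts per library.

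With the replicate block, 349 genes were called, with 60 untreated gaps only and 172 treated gaps only. Libraries of the same number correlated at -0.03 to 0.12 in their deviations from the group means, over 0.1 in 2 of 15 pairs. Libraries of different number correlated at -0.20 to 0.19. Deviations within a group cancel by construction, so these values cannot show whether the numbers pair the samples.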
